A study of Homo sapiens with 4 samples.

Results

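The CpG methylation of 19q13.42 was followed in WT and ZNF274KO HEK293T cells, over the CpGs of chromosome 19 between 54.7 and 56.6 Mb of hg19. The interval was set by position, with earlier results of these data known, and holds 40828 of the 27710999 CpGs listed on autosomes and X. It was read as an immune receptor part with the LILR and KIR genes (54.7 to 55.43 Mb, 12766 CpGs), a segment with NLRP7 and NLRP2 (55.43 to 55.52 Mb, 2055 CpGs), a gene-dense segment between the NLRP blocks (55.52 to 56.2 Mb, 19463 CpGs) and a segment from NLRP9 to NLRP5 (56.2 to 56.6 Mb, 6544 CpGs). HEK293T is a human embryonic kidney cell line that carries the SV40 large T antigen. ZNF274 belongs to the KRAB zinc finger proteins, which bind DNA through their fingers and bring KAP1 and the histone methyltransferase SETDB1 to their sites. The study asked what is lost when it is absent. Both groups are the same line and differ by genotype, WT against a homozygous CRISPR-Cas9 deletion of ZNF274 made with a pair of guides flanking the gene, puromycin selection and sorting of single cells into wells. Each group has 2 libraries, and whether these came from separate clones or cultures is not stated, so p-values measure the spread between these libraries, which may be technical.

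The LILR and KIR genes form the leukocyte receptor complex. LILRB and long-tailed KIR proteins are inhibitory receptors of blood cells, several of which bind HLA class I on other cells, while LILRA and short-tailed KIR proteins lack the inhibitory tail and activate. NLRP genes encode proteins with a pyrin domain, a nucleotide-binding domain and leucine-rich repeats, and the members at this position are known mostly from oocytes and early embryos. Methylation of a CpG is read here in the enzymatic way (EM-seq), in which unmethylated cytosines are converted and read as T while methylated ones stay C. The level is the share of reads with C over all reads at the CpGs of a stretch, as a percentage. RNA was not measured in these libraries, so the identity of the cells was not checked against marker genes.

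Several stretches on which the results below turn are printed from GRCh37, plus strand, with each CpG in capitals. The first is the most CpG-dense 200 bases, outside annotated UTRs, of one of the tiles with the largest differences in the immune receptor part. It lies upstream of LAIR1, between protein-coding genes, at chr19:54886937-54887136. The other 3 are the 200 bases before the canonical starts of KIR3DL1 (chr19:55327723-55327922), KIR2DL3 (chr19:55249778-55249977) and KIR2DL4 (chr19:55314865-55315064), shown to compare KIR starts with each other.
LAIR1 upstream: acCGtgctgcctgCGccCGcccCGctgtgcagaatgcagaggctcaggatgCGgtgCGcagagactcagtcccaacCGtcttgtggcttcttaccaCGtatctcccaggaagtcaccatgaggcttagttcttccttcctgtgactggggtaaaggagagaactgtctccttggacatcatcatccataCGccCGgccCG
KIR3DL1 upstream: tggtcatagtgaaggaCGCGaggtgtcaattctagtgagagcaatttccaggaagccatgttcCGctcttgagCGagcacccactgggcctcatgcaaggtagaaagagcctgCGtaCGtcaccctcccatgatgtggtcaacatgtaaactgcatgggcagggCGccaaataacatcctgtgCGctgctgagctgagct
KIR2DL3 upstream: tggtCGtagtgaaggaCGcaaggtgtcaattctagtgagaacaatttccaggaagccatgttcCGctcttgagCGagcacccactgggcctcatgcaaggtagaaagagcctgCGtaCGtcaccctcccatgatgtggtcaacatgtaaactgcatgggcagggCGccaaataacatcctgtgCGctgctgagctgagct
KIR2DL4 upstream: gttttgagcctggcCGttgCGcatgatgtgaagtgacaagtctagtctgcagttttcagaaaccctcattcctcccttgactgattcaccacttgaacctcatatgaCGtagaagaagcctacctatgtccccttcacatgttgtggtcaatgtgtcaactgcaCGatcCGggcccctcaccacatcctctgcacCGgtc

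The stretches upstream of KIR3DL1 and KIR2DL3 differed by 3 edits and were 98.5% identical, whereas those of KIR2DL4 and KIR3DL1 were 61.5% identical. Of the stretches not printed, that of KIR3DL2 was 96.5% identical to KIR3DL1, that of KIR2DL1 72.5%, that of KIR3DL3 64.5% and that of KIR2DS4 46%. The starts are those of the annotation, so a shifted start counts as edits. Of the 11 CpGs upstream of LAIR1, 9 lay in a converted stretch of 50 bases found at 1 place in the genome. None of the 8, 8 and 6 CpGs upstream of KIR3DL1, KIR2DL3 and KIR2DL4 did.

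The files held between 241598512 and 295114493 reads over CpGs per library, a median of 8 to 10 reads per CpG, and between 256086 and 391243 reads within 19q13.42. Over the CpGs of the ZNF274 gene, WT libraries had 5158 and 4274 reads and ZNF274KO libraries 0 and 14, so the deletion was seen in both. Genome-wide levels were 59.3% and 60.4% in WT and 60.2% and 58.4% in ZNF274KO. A read is counted at each CpG it covers, so a read over several CpGs counts more than once. Intervals given below cover counting error only and treat these counts as independent, which makes them too narrow.

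Methylation along 19q13.42 fell into high and low blocks that all 4 libraries shared. At the centromeric end, the first 50 kb with RPS9, LILRB3 and LILRA6 stood at 65.6% and 63.6% in WT. The bins from LAIR2 through the LILRA2, LILRA1 and LILRB1 genes to KIR2DL4 stood between 8.04% and 17.9% in the WT libraries, and the lowest of these was the bin of LILRA1 and LILRB1 (8.23% and 8.04%). NLRP7 and NLRP2 and the gene-dense segment that follows stood far higher, up to 79.0% and 79.4% in WT in the bin of BRSK1 and TMEM150B. The bins from NLRP11 to NLRP5 were lower again, with WT values of 11.6% and 11.4% in the bin of NLRP13. The bin of NLRP4 alone stood at 26.3% and 31.7% in WT, and the last bin, with NLRP5 and ZNF787, at 38.7% and 38.4%.

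**Figure D1:**
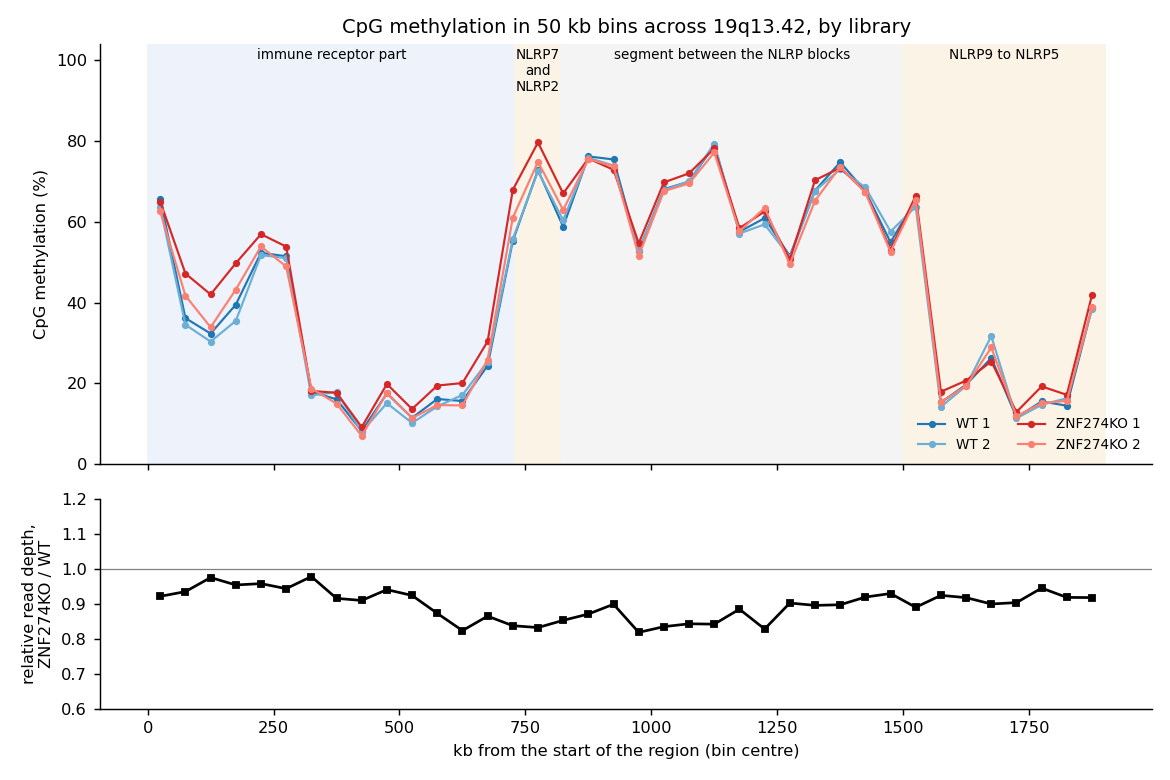
Top, CpG methylation (percent) in 38 bins of 50 kb across 19q13.42, 1 line per library, against kb from the start of the region. Bottom, read depth of ZNF274KO over WT, each relative to the rest of chromosome 19. The libraries share the same blocks, and the lines part mainly between 50 and 200 kb (LILRB5 to LAIR1) and between 700 and 850 kb (NCR1 to NLRP2), while relative depth lies between 0.82 and 0.98.

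The widest gaps, with ZNF274KO above WT, lay from LILRB5 to LAIR1 and from NCR1 to NLRP2. The bin of LILRB5 and LILRB2 was at 36.2% and 34.5% in WT and 47.2% and 41.7% in ZNF274KO, a difference of 9.12 percentage points. The bin of LAIR1 was at 39.5% and 35.5% in WT and 49.7% and 43.2% in ZNF274KO, a difference of 9.0 points. The bin of NCR1 was at 55.3% and 55.7% in WT and 67.9% and 61.0% in ZNF274KO, a difference of 8.95 points. In these 3 bins the libraries of the groups did not overlap. The same held for many of the other bins. Several of those were lower in ZNF274KO, such as the bin of BRSK1 and TMEM150B (-1.53 points). The first bin, with LILRB3 and LILRA6, differed by -0.800 points with overlap, and the bin of U2AF2 by -3.43 points without overlap (54.9% and 57.6% in WT, 53.1% and 52.5% in ZNF274KO). In the low block around LILRA1 and LILRB1 the difference was -0.0435 points, and at NLRP13 it was 0.90 points.

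By segment, the immune receptor part measured 34.0% and 32.99% in WT (33.5% ± 0.711, SD, n = 2) and 38.7% and 34.8% in ZNF274KO (36.8% ± 2.77, SD, n = 2). The difference of 3.26 points had an exact two-sided permutation p of 0.33, the smallest that 2 against 2 libraries allow, so no segment could pass a threshold of 0.05. The NLRP7 and NLRP2 segment measured 61.9% and 63.3% in WT and 70.3% and 65.3% in ZNF274KO, a difference of 5.24 points with the same exact p of 0.33. In both, the groups did not overlap, and the ZNF274KO libraries differed from each other more than the WT libraries did. The segment between the NLRP blocks measured 65.3% and 65.1% in WT and 65.5% and 64.2% in ZNF274KO, a difference of -0.301 points (exact permutation p = 1). The NLRP9 to NLRP5 segment measured 28.4% and 28.5% against 29.9% and 28.6%, a difference of 0.752 points (exact permutation p = 0.33), with ZNF274KO 2 close to both WT libraries. ZNF274KO 1 carried more of these differences than ZNF274KO 2. Without ZNF274KO 1 the difference was 1.30 points in the immune receptor part and 2.73 points at NLRP7 and NLRP2. Without ZNF274KO 2 it was 5.21 and 7.75 points.

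**Figure D2:**
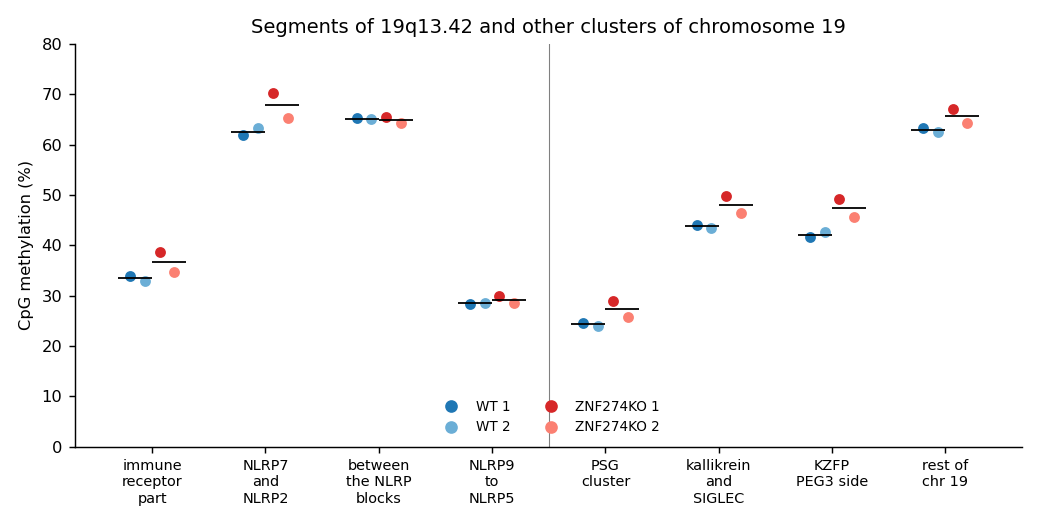
CpG methylation (percent) of the 4 segments of 19q13.42, of other tandem gene clusters and of the rest of chromosome 19, with 1 point per library and a line at the mean of each group. The ZNF274KO mean is above the WT mean in all but the segment between the NLRP blocks, and ZNF274KO 1 is the higher of the ZNF274KO libraries in each.

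Other gene clusters of the same chromosome gave a scale for these values. The pregnancy-specific glycoprotein (PSG) cluster differed by 3.05 points, the kallikrein and SIGLEC cluster by 4.32 points, the KRAB zinc finger (KZFP) cluster that follows at 19q13.43 by 5.30 points, and the rest of chromosome 19 by 2.75 points. The difference in the immune receptor part minus that of the cluster was 0.212 points for PSG, -1.06 points for kallikrein and SIGLEC and -2.05 points for the KZFP cluster, with exact permutation p values of 0.667, 0.33 and 0.33. The sign against PSG turned when only CpGs in stretches of 50 bases that occur once were kept (-0.451 points). Of the CpGs of the PSG cluster, 47.8% lay in such stretches. With each library left out in turn, the values ranged from -0.0905 to 0.514 points against PSG. They ranged from -1.33 to -0.789 points against kallikrein and SIGLEC and from -2.98 to -1.11 points against the KZFP cluster. Over both NLRP segments, the NLRP part differed by 1.23 points, and minus the PSG, kallikrein and KZFP clusters this was -1.82, -3.09 and -4.08 points, each with an exact permutation p of 0.33. The value of the NLRP part against PSG turned to 0.250 points with each CpG weighted equally. It ranged from -2.49 to -1.14 points with each library left out in turn. The NLRP7 and NLRP2 segment alone gave 2.19, 0.922 and -0.0646 points against these clusters (exact permutation p = 0.33, 0.667 and 1). With each library left out in turn these ranged from 1.21 to 3.17, from -0.0783 to 1.92 and from -0.782 to 0.653 points, so the signs against the kallikrein and KZFP clusters turned.

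Single CpGs showed the same order. Where all 4 libraries had 5 or more reads at a CpG, 54.6% and 55.4% of those in the immune receptor part were methylated at 20% or less in WT, and 49.1% and 54.1% in ZNF274KO. CpGs at 80% or more made up 20.02% and 19.4% in WT and 23.5% and 21.6% in ZNF274KO. At NLRP7 and NLRP2, CpGs at 80% or more made up 45.1% and 44.7% in WT and 56.9% and 50.5% in ZNF274KO, without overlap. From NLRP9 to NLRP5, CpGs at 20% or less were the majority in every library, between 61.1% and 65.9%.

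To test the differences locally, reads were summed in 5 kb tiles and fitted together with all tiles of the genome by edgeR's quasi-likelihood test. All 380 tiles of 19q13.42 had enough reads. None was called at an adjusted p under 0.05, against 0.486% of the 563514 tiles tested. At an unadjusted p under 0.05, edgeR gave 66 tiles of 19q13.42 (17.4%), against 6.51% of all tiles and 24.2% of those on the rest of chromosome 19. In 56 of them ZNF274KO was higher and in 10 lower, against 3.27% and 3.24% of all tiles. After adjustment limma called none here, against 856 of the 563514 tiles tested. Of the 66 tiles, 37 were among the 146 of the immune receptor part, 9 among the 18 at NLRP7 and NLRP2, 8 among the 136 of the segment between the NLRP blocks and 12 among the 80 from NLRP9 to NLRP5. The same test called 42 of 260 tiles of the adjacent KZFP cluster, 5 of 180 at kallikrein and SIGLEC, and 0 of 120 at PSG. At an unadjusted p under 0.05 edgeR gave 112 (43.1%), 75 (41.7%) and 23 (19.2%) tiles of these clusters. On the rest of chromosome 19 12.2% of tiles were called.

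The ZNF274KO pair lay above both WT libraries in 111 tiles (29.2%), against 13.5% of all tiles tested and 32.6% on the rest of chromosome 19. They lay below both in 52 tiles (13.7%), against 22.3% of all tiles and 16.8% on the rest of chromosome 19. At NLRP7 and NLRP2, 15 of 18 tiles lay above and 0 below, and in the immune receptor part 51 of 146 lay above and 13 below. In the segment between the NLRP blocks the counts were 22 above and 28 below. The median difference of the tiles was 0.929 points in 19q13.42, 4.88 points at NLRP7 and NLRP2 and 1.96 points in the immune receptor part. Over all tiles it was -0.582 points. It was 1.89 points at PSG, 4.67 points at kallikrein and SIGLEC and 2.52 points in the KZFP cluster. Tiles with a mean level of 20% to 50% had a median difference of 2.57 points here and 0.849 points over all tiles of that level.

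**Figure D3:**
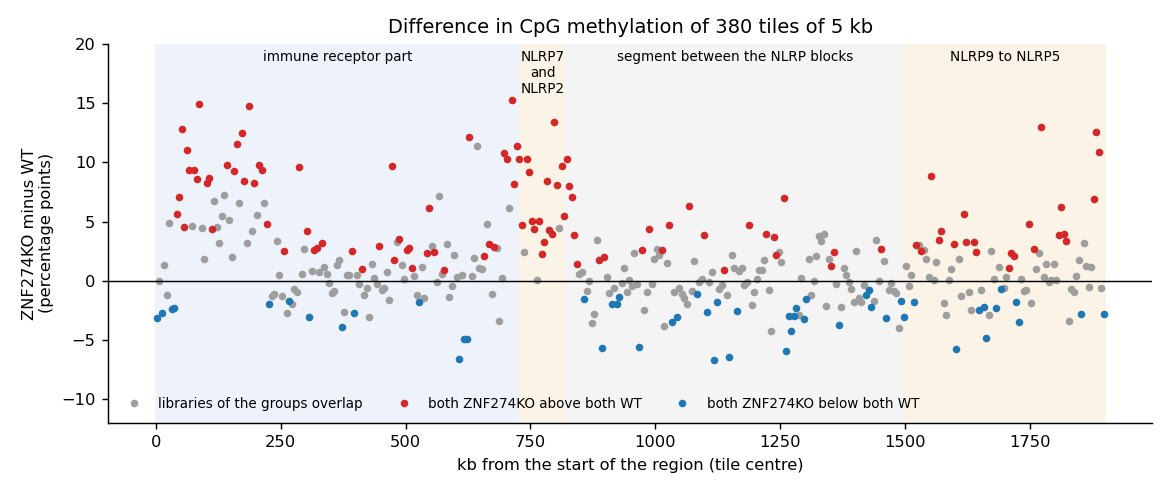
Difference in CpG methylation, ZNF274KO minus WT in percentage points, of the 380 tiles of 5 kb against kb from the start of the region. Red tiles (111) have both ZNF274KO libraries above both WT, blue tiles (52) both below, and grey tiles overlap; differences run from -6.73 to 15.3 points and red tiles gather left of 250 kb and between 700 and 850 kb.

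The tiles with the largest differences among those without overlap are given although none was called. The tile at 55410001 to 55415000, centromeric of NCR1, was at 51.4% and 47.1% in WT and 71.7% and 57.3% in ZNF274KO (86 CpGs, 15.3 points, adjusted p = 0.227 by edgeR). The tile at 54785001 to 54790000, at the start of LILRB2, was at 26.8% and 26.7% in WT and 50.97% and 32.4% in ZNF274KO (68 CpGs, 14.9 points, adjusted p = 0.281 by edgeR). The tile at 54885001 to 54890000, upstream of LAIR1, was at 41.5% and 39.4% in WT and 60.3% and 50% in ZNF274KO (118 CpGs, 14.7 points, adjusted p = 0.0975 by edgeR). In each of these, ZNF274KO 1 stood well above ZNF274KO 2. Without ZNF274KO 1 the differences at NCR1, LILRB2 and LAIR1 were 8.04, 5.60 and 9.59 points. Without ZNF274KO 2 the 3 tiles were called (22.5, 24.2 and 19.9 points, adjusted p = 0.00162, 0.000574 and 0.00308 by edgeR), and without WT 1 those at NCR1 and LAIR1 were (adjusted p = 0.0234 and 0.0325 by edgeR). With a library left out, its group holds 1 library, which is assumed to vary like the other group, so these calls rest on the spread of a single pair. The tile with the lowest p of 19q13.42, at 54750001 to 54755000 over parts of LILRB5 and RPS9, differed in this respect, since its libraries were at 61.2% and 60.1% in WT and 73.9% and 73.0% in ZNF274KO (93 CpGs, 12.8 points, adjusted p = 0.0639 by edgeR). Within the 200 bases printed above from upstream of LAIR1, the level was 53% (95% Wilson interval 43.3% to 62.5%, 100 reads) and 51.8% (39.0% to 64.3%, 56 reads) in WT. It was 84.9% (72.9% to 92.1%, 53 reads) and 81.8% (61.5% to 92.7%, 22 reads) in ZNF274KO. The stretch was chosen for its CpG density, in a tile chosen for its difference and then for the lowest p of these 3 tiles. The gap between the groups was thus part of the choice.

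In the NLRP part, the tile at 55495001 to 55500000 within NLRP2 was at 53.9% and 58.4% in WT and 71.6% and 67.6% in ZNF274KO (102 CpGs, 13.45 points, adjusted p = 0.0809 by edgeR). The tile at 56470001 to 56475000 within NLRP8 was at 21.3% and 18.7% in WT and 37.8% and 28.2% in ZNF274KO (85 CpGs, 12.97 points, adjusted p = 0.0936 by edgeR). The tile at 56580001 to 56585000, telomeric of NLRP5, was at 52.1% and 54.3% in WT and 68.1% and 63.4% in ZNF274KO (69 CpGs, 12.6 points, adjusted p = 0.198 by edgeR). The NLRP8 tile stood out from a body that was low in all libraries. Its difference was 8.14 points without ZNF274KO 1, and it was called without WT 1 and without ZNF274KO 2 (adjusted p = 0.0174 and 0.00473 by edgeR). The NLRP2 tile was called without WT 2 and without ZNF274KO 2 (adjusted p = 0.0179 and 0.0455 by edgeR).

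The largest differences in the other direction were smaller. In the immune receptor part they lay around KIR2DL4, at 55305001 to 55310000 (-6.65 points, adjusted p = 0.697), 55320001 to 55325000 (-4.96 points, 0.469) and 55315001 to 55320000 (-4.90 points, 0.562), all by edgeR. In the NLRP part they lay within NLRP11 (-5.74 points, adjusted p = 0.727), NLRP4 (-4.87 points, 0.736) and NLRP13 (-3.49 points, 0.866), again by edgeR. The NLRP4 tile was an exception in its surroundings, with 212 CpGs at 78.1% and 79.5% in WT and 72.4% and 75.5% in ZNF274KO. In the order above, the tiles around KIR2DL4 were at 16.1% and 21.6%, 9.44% and 12.8%, and 14.0% and 14.3% in WT. In ZNF274KO they were at 13.2% and 11.3%, 5.18% and 7.16%, and 11.1% and 7.38%. The NLRP13 tile, with 29 CpGs, was at 11.3% and 9.52% in WT and 8.37% and 5.42% in ZNF274KO.

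None of the 81 gene bodies of 19q13.42 was called by edgeR, against 0.918% of the 19827 bodies tested. At an unadjusted p under 0.05, edgeR gave 11 bodies, or 13.6% against 7.22% of all bodies. ZNF274KO was higher in 8 of these and lower in 3 (2.9% and 4.32% over all bodies). After adjustment limma called none here, against 57 of the 19827 bodies tested. Both ZNF274KO libraries lay above both WT in 20 bodies (24.7%), against 9.09% of all bodies, and below in 11 (13.6%), against 30.6%.

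The 10 LILR bodies ranged from 3.29% to 64.8% in mean WT level, high at the centromeric end and lowest around LILRA1. The inhibitory receptor LILRB3 (65.3% and 64.4% in WT, 65.8% and 62.9% in ZNF274KO) and its activating neighbour LILRA6 were the highest, and their annotated entries overlap over most of their length. LILRB5 was at 46.9% and 49.9% in WT and 57.1% and 58.5% in ZNF274KO (9.43 points, adjusted p = 0.431 by edgeR). LILRB2, an inhibitory HLA class I receptor of myeloid cells, was at 27.8% and 21.8% in WT and 37.2% and 32.7% in ZNF274KO (10.1 points, adjusted p = 0.266 by edgeR). These were the LILR bodies with an unadjusted p under 0.05, and their groups did not overlap. The LILRB2 difference was 13.07 points without WT 1 (adjusted p = 0.0260 by edgeR) and 7.09 points without WT 2. LILRA4, a receptor of plasmacytoid dendritic cells, was at 59.5% and 52.7% in WT and 66.1% and 58.0% in ZNF274KO, and LILRA5 at 23.2% and 24.4% against 35.2% and 23.9%, and in both the groups overlapped. Without ZNF274KO 1 these differed by 1.9 and 0.140 points.

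Telomeric of these, the LILR bodies were nearly free of methylation in both genotypes. LILRA1 was at 3.46% and 3.13% in WT and 3.52% and 3.46% in ZNF274KO. LILRA2 was at 4.74% and 4.63% in WT and 4.62% and 3.28% in ZNF274KO. LILRB1, the inhibitory receptor on many leukocytes that binds HLA class I, was at 7.09% and 6.66% against 9.29% and 6.60%, so that 1 ZNF274KO library was above and 1 below WT. LILRB4 was somewhat higher, at 18.6% and 15.9% in WT and 21.3% and 19.4% in ZNF274KO (3.08 points, adjusted p = 0.722 by edgeR). The median difference of the 10 LILR bodies was 2.08 points, against -0.931 points over all bodies.

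**Figure D4:**
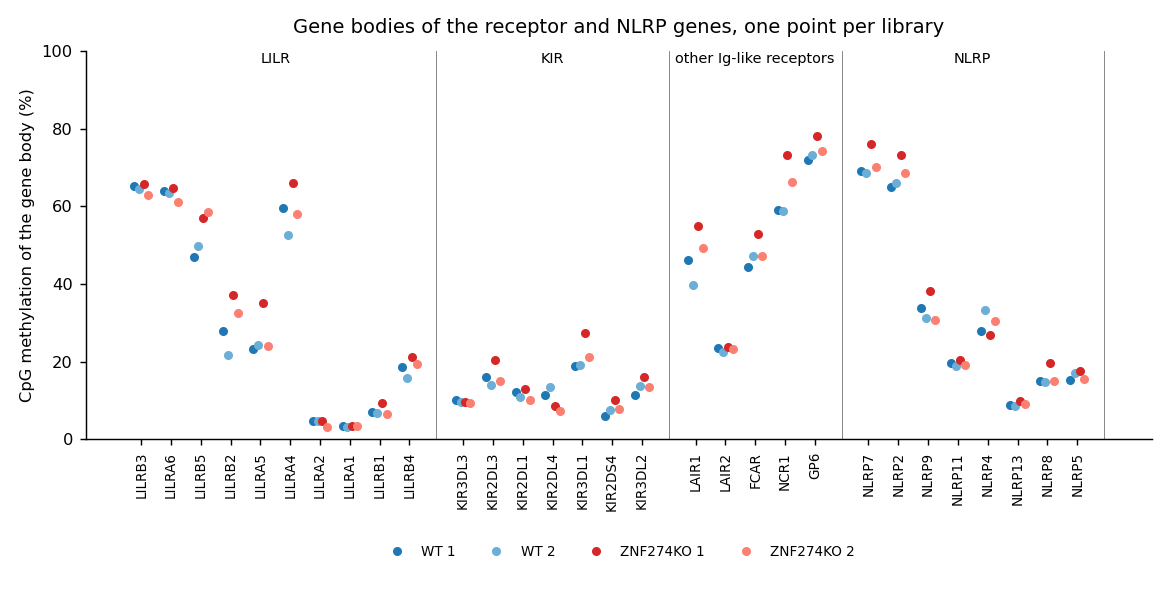
CpG methylation (percent) of the bodies of 10 LILR, 7 KIR, 5 other Ig-like receptor and 8 NLRP genes, with 1 point per library and genes in genomic order within each family. LILRB5, LILRB2, LAIR1 and NCR1 show the widest gaps between WT and ZNF274KO (9.12 to 10.9 points), while LILRA2, LILRA1 and LILRB1 stay under 10% in every library.

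The 7 KIR bodies were low throughout, with mean WT levels of 6.80% to 18.97%. KIR3DL1, an inhibitory receptor of natural killer cells, was the highest at 18.8% and 19.1% in WT and was at 27.5% and 21.1% in ZNF274KO (5.33 points, adjusted p = 0.690 by edgeR), with 2.14 points without ZNF274KO 1 and 8.53 points without ZNF274KO 2. The activating KIR2DS4 was the lowest, at 5.96% and 7.64% in WT and 10.1% and 7.84% in ZNF274KO. In both, ZNF274KO lay above WT without overlap. KIR2DL4, a framework gene of the cluster, was the only KIR body with an unadjusted p under 0.05 and lay the other way, at 11.5% and 13.434% in WT and 8.46% and 7.31% in ZNF274KO (-4.56 points, adjusted p = 0.395 by edgeR). KIR3DL3 (10.3% and 9.53% against 9.72% and 9.35%), KIR2DL1 (12.1% and 10.8% against 12.8% and 10.3%), KIR2DL3 (15.9% and 13.9% against 20.5% and 14.9%) and KIR3DL2 (11.3% and 13.8% against 16.1% and 13.5%) differed by -0.358, 0.108, 2.82 and 2.25 points. Without ZNF274KO 1 the differences of KIR2DL3 and KIR3DL2 were 0.0111 and 0.947 points. The median difference of the 7 bodies was 2.15 points.

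Much of the KIR sequence occurs at more than 1 place in the genome, so reads can be placed at the wrong copy. The other places were not located. Upstream of KIR2DL4 no CpG lay in a stretch of 50 bases found once, although it was at most 61.5% identical to the other KIR starts. Likeness among the KIR genes as the reason was not tested. A median of 11.0% of the CpGs in a KIR body lay in a converted stretch of 50 bases found at 1 place in the genome, and 31.7% with stretches of 100 bases, against 60.2% (50 bases) for LILR bodies, 69.1% for NLRP bodies and 92.0% for the other genes here. With only such CpGs of 50 bases kept, the KIR3DL1 difference turned to -3.75 points and the KIR2DL1 difference to -1.92 points, whereas KIR2DL4 gave -9.90 points. These CpGs made up 12.0% of the KIR3DL1 body, 10.6% of KIR2DL1 and 7.35% of KIR2DL4, so each value rests on few CpGs. Values of a given KIR gene are thus those of the reads placed there.

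KIR promoters, taken as 1 kb either side of the start, stood well above the bodies. Over the 6 that had enough reads, mean WT levels ranged from 17.3% to 62.4% with a median of 54.5%. KIR2DL3 was at 59.4% and 58.1% in WT and 75.7% and 57.6% in ZNF274KO. KIR3DL1 was at 54.8% and 45.8% in WT and 66.8% and 56.6% in ZNF274KO (11.4 points, unadjusted p = 0.0443 and adjusted p = 0.824 by edgeR), with 6.28 points without ZNF274KO 1. KIR2DL4 was the low one, at 18.996% and 15.6% in WT and 13.6% and 9.20% in ZNF274KO (-5.91 points, adjusted p = 0.867 by edgeR), with -3.69 points without ZNF274KO 2. Each promoter was above its own body in every library. In these promoters a median of 5.85% of the CpGs lay in a stretch of 50 bases found at 1 place, and 3.03% at KIR3DL1. The promoter of KIR2DS4 was not tested because a library had under 20 reads there.

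**Figure D5:**
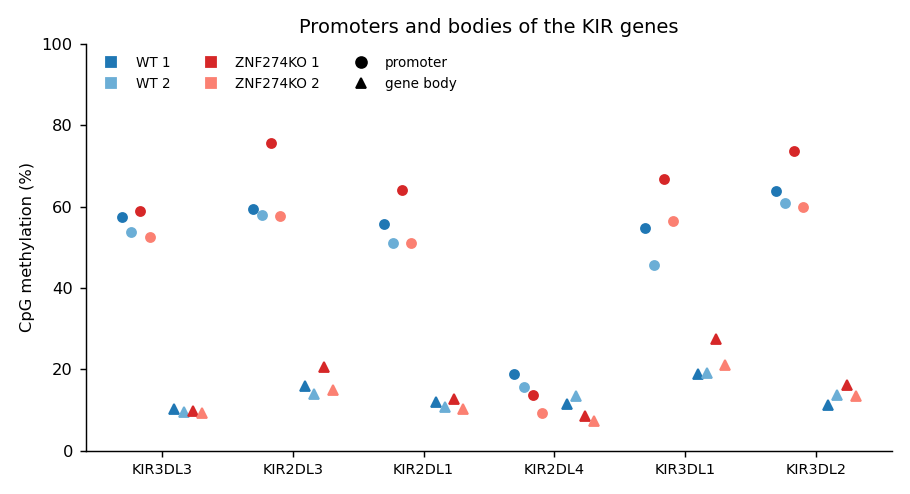
CpG methylation (percent) of promoters (circles, 1 kb either side of the start) and gene bodies (triangles) of the 6 KIR genes whose promoter was tested, with 1 point per library. All promoters but that of KIR2DL4 lie above 45%, bodies lie under 28%, and ZNF274KO 1 is the highest library at each promoter except KIR2DL4.

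Among the other Ig-like receptors, LAIR1 and NCR1 had the widest gaps. NCR1, which encodes the natural killer receptor NKp46, was at 59.1% and 58.7% in WT and 73.3% and 66.4% in ZNF274KO (10.9 points). With an adjusted p of 0.186 by edgeR, it was the lowest of the gene bodies here. LAIR1, an inhibitory collagen receptor, was at 46.1% and 39.8% in WT and 55.0% and 49.2% in ZNF274KO (9.12 points, adjusted p = 0.344 by edgeR), and the difference was 12.27 points without WT 1 (adjusted p = 0.0371 by edgeR), 5.96 points without WT 2 and 6.22 points without ZNF274KO 1. Both had groups that did not overlap, as had GP6, the collagen receptor of platelets, at 71.9% and 73.2% against 78.2% and 74.4% (3.72 points, adjusted p = 0.714 by edgeR, and 1.83 points without ZNF274KO 1). FCAR, the IgA receptor, was at 44.4% and 47.2% in WT and 52.9% and 47.1% in ZNF274KO. LAIR2, the secreted relative of LAIR1, differed by 0.528 points, at 23.4% and 22.5% against 23.8% and 23.2%.

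The 8 NLRP bodies fell into a high pair and a low group of 6. NLRP7, in which maternal mutations cause recurrent hydatidiform moles, was at 69.1% and 68.6% in WT and 76.1% and 70.0% in ZNF274KO (4.22 points, adjusted p = 0.676 by edgeR). Its neighbour NLRP2 was at 65.1% and 65.9% in WT and 73.1% and 68.6% in ZNF274KO (5.36 points, adjusted p = 0.438 by edgeR). These bodies, whose annotated entries overlap, were the NLRP bodies with an unadjusted p under 0.05, and in both the groups did not overlap. Of their CpGs, 46.7% (NLRP7) and 48.7% (NLRP2) lay in a stretch of 50 bases found at 1 place, the lowest of the NLRP bodies. Without ZNF274KO 1 the differences of NLRP7, NLRP2 and NLRP8 were 1.201, 3.12 and 0.218 points. NLRP13 was the lowest, at 8.82% and 8.61% in WT and 9.86% and 9.16% in ZNF274KO. NLRP8 was at 15.0% and 14.7% against 19.7% and 15.1%, and NLRP5, part of the subcortical maternal complex of the oocyte, at 15.3% and 17.0% against 17.7% and 15.5%. NLRP9, NLRP11 and NLRP4 differed by 1.92, 0.608 and -2.04 points, and their groups overlapped. The median difference of the 8 bodies was 1.36 points.

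Promoters gave no call either, with 0 of 79 at an adjusted p under 0.05 by edgeR, against 0.248% of the 19746 promoters tested. At an unadjusted p under 0.05 edgeR gave 8 (10.1%, against 6.05% of all promoters). After adjustment limma called none of all 19746 promoters. The CpG-rich NLRP7 promoter was highly methylated in every library, at 86.3% and 85.1% in WT and 88.7% and 88.7% in ZNF274KO (3.002 points, adjusted p = 0.901 by edgeR). The outermost NLRP2 start, which is not CpG-rich, was at 68.6% and 63.1% in WT and 79.1% and 47.6% in ZNF274KO. The promoters of LILRA2, LILRA1 and LILRB1 were at most 3.83% in any library. NLRP9 was at 9.43% and 7.81% in WT and 20.2% and 10.6% in ZNF274KO (6.74 points, unadjusted p = 0.0260, adjusted p = 0.754 by edgeR). NLRP5 was at 17.3% and 16.2% against 25.6% and 21.3% (6.72 points, adjusted p = 0.824 by edgeR), and LILRB2 at 13.6% and 5.81% against 22.8% and 13.41% (8.36 points, adjusted p = 0.762 by edgeR). Without ZNF274KO 1 the differences of NLRP9, NLRP5 and LILRB2 were 1.94, 4.55 and 3.68 points. In the other direction, NLRP11 was at 38.0% and 32.6% in WT and 31.7% and 26.3% in ZNF274KO (-6.25 points, adjusted p = 0.888 by edgeR), without overlap. The lowest p of the 79 promoters was that of TMEM150B, named after its value was seen, at 80.4% and 81.2% in WT and 66.998% and 70.6% in ZNF274KO (-12.04 points, adjusted p = 0.427 by edgeR). At their canonical starts NLRP11 and TMEM150B differed by 0.710 and 1.23 points, so their direction depended on the start. Of the 8 NLRP promoters 4 had a positive difference, with a median of -0.373 points, against 6 of 8 and a median of 1.72 points at canonical starts. For some genes the outermost annotated start lies far from the canonical one. At canonical starts edgeR also called 0 of 79 (against 0.152% of all) and gave 7 at an unadjusted p under 0.05 (against 5.77% of all). LILRB4 there was at 30.0% and 22.8% in WT and 38.2% and 39.5% in ZNF274KO (12.5 points, adjusted p = 0.711 by edgeR) and LAIR1 at 52.2% and 51.9% against 66.96% and 59.5% (11.1 points, adjusted p = 0.835 by edgeR), whereas at the outermost starts these differed by -3.74 and -3.45 points.

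The bodies of the 51 other protein-coding genes differed by -7.73 to 8.41 points with a median of -0.299 points. Both ZNF274KO libraries lay above both WT in 7 of them, against 9.09% of all bodies. They lay below both in 9, against 30.6% of all bodies. The largest differences among those with at least 50 CpGs were at TMEM190 (8.41 points), RFPL4A (5.18 points) and AC020922.1 (4.73 points) in the direction of ZNF274KO. The groups overlapped at AC020922.1 (62.2% and 55.5% in WT, 59.1% and 68.0% in ZNF274KO), so its difference rests on ZNF274KO 2. The largest differences in the direction of WT were at ISOC2 (-7.73 points), NAT14 (-6.23 points) and LENG9 (-5.91 points). The groups overlapped at NAT14 (63.5% and 68.5% in WT, 64.5% and 55.0% in ZNF274KO). They also overlapped at LENG9 (16.69% and 24.05% in WT, 16.70% and 12.22% in ZNF274KO). ISOC2 was at 50.2% and 51.2% in WT and 42.3% and 43.6% in ZNF274KO, without overlap, and had an adjusted p of 0.463 by edgeR. RFPL4A, between NLRP9 and NLRP11, was low at 6.59% and 9.52% in WT and 12.9% and 13.5% in ZNF274KO (adjusted p = 0.542 by edgeR). Of its CpGs, 43.5% lay in a stretch of 50 bases found at 1 place. RFPL4AL1, which follows it, went the other way by -1.37 points, without overlap.

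Read depth over 19q13.42 also differed between the genotypes. Relative to the rest of chromosome 19, it was 0.967 and 0.958 in WT and 0.853 and 0.871 in ZNF274KO, a ratio of 0.895 without overlap (exact permutation p = 0.33). The ratio was 0.924 in the immune receptor part, 0.841 at NLRP7 and NLRP2, 0.875 in the segment between the NLRP blocks and 0.913 from NLRP9 to NLRP5. Fewer copies of the region and fewer reads mapped there cannot be told apart, and the part of depth in the differences was not tested. Levels read on the plus and the minus strand differed by at most 2.06 points in any segment and library. At NLRP7 and NLRP2, the plus strand minus the minus strand was -1.50 and -1.25 points in WT and 1.17 and 0.837 points in ZNF274KO. The difference between the genotypes there was thus larger on the plus strand.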

How the data were processed

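EM-seq was done on DNA of WT and ZNF274KO HEK293T cells, and groups and replicate numbers follow the labels, 2 libraries each. The authors ran the Msuite2 pipeline with HISAT2 against hg19 plus rDNA and deposited raw counts of C and T reads per CpG and strand, 1 file per library. Whether poorly mapped or duplicated reads were removed is not given in the sources used here; duplicates would narrow the intervals. All sites listed are a CG in GRCh37; positions count from 1. Some stretches of sequence are not reported here.

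Members and gene lists were chosen with earlier results of these data known. C and T counts were summed over 5 kb tiles and over bodies and promoters (1 kb either side of the outermost start) of the protein-coding genes of GENCODE release 44 on GRCh37. A feature needed 5 CpGs and at least 20 reads per library. All features of the genome were fitted at once with edgeR 4.0.16 (quasi-likelihood test; terms for each library, for methylated reads and for methylated reads in ZNF274KO) under R 4.3.3, with Benjamini-Hochberg adjustment and a threshold of 0.05. Segment levels were compared by exact two-sided permutation of libraries. The fits were tested on simulated data with known changes; false calls there stayed near the threshold for tiles and below it for promoters but ran somewhat above it for gene bodies, so calls of gene bodies are less strict than stated.

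Alternatives were other read minimums (10, 50), a block for the replicate number, centring, limma 3.58.1 on log2 ratios of the counts (pseudocount 1), leaving out very deep CpGs (over 5 times the median) or CpGs under 3 reads in a library, other tile and promoter widths, CpGs whose converted 50 or 100 bases occur at 1 place, unweighted means and leaving out each library. The crossed block, canonical starts and calls over CpGs with such 50 bases were added after seeing the data. Named were all receptor and NLRP genes, the 3 largest differences per direction among other genes with 50 or more CpGs, and, with fewer than 3 tiles called per part, the 3 largest tile differences per direction without overlap and with 20 or more CpGs. The tile and the promoter with the lowest p were named after their values were seen. Python 3.11.15 was used with numpy 2.4.6, with pandas 2.3.3, with scipy 1.17.1, and for figures with matplotlib 3.10.9; edlib 1.3.9.post1 counted edits.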

Additional observations from a re-analysis of the deposited data

How the results depend on the processing

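No tile of 19q13.42 was called with minimums of 10 or 50 reads, limma, deep CpGs left out, CpGs in stretches of 50 bases that occur at 1 place or 10 kb tiles. Centring on the genome-wide level called 2 of 380 tiles (at 54750001 and 55495001), against 3094 of all 563514 tested. Leaving out CpGs under 3 reads in a library called 1 of 379 tiles (at 54750001), against 2794 of all 560896. Tiles of 2 kb gave 2 of 944, 1 of them lower (within U2AF2, -1.43 points), against 6089 of all 1357123. Leaving out each library in turn changed how many tiles were called, here and over the genome. Those called here were all higher, the most without ZNF274KO 2 and the fewest without ZNF274KO 1. The spread then comes from the other group's pair alone. It gave 0 to 2 gene bodies, LILRB2 and LAIR1 without WT 1. No other setting called a gene body, and none called a promoter.

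Replicate numbers in the labels are not said to pair the libraries. The differences between replicates of the 2 groups correlated at -0.108 over all tiles and at -0.0786 over those of 19q13.42. A replicate block gave 12 called tiles and no gene body or promoter, and over the genome 4793 tiles against 2741. The crossed pairing gave 13 tiles, and 6609 over the genome. With the block, segment differences were the same and an exact sign-flip test could not go below 0.5.

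The difference of the segment between the NLRP blocks was 0.241 points after subtracting the genome-wide level and -0.961 to 0.360 points with libraries left out. The difference of the immune receptor part from PSG was -0.451 points over CpGs in stretches of 50 bases at 1 place and -0.0905 to 0.514 points with libraries left out. The NLRP part against PSG was 0.250 points unweighted. The NLRP7 and NLRP2 segment turned sign against the kallikrein and KZFP clusters with libraries left out, a check added after seeing the data. The other segment differences kept their direction, with the immune receptor part at 1.30 to 5.21 points, NLRP7 and NLRP2 at 2.73 to 7.75 points, NLRP9 to NLRP5 at 0.101 to 1.40 points, the NLRP part at 0.248 to 2.21 points and the whole region at 0.0369 to 1.70 points with libraries left out.

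Genes that were not called also changed sign. At canonical starts instead of outermost ones, the promoters of LAIR1, LAIR2, LILRB1, LILRB4, NLRP2, NLRP11 and TMEM150B gave 11.1, 1.33, 1.36, 12.5, 2.79, 0.710 and 1.23 points against -3.45, -4.70, -0.943, -3.74, -2.48, -6.25 and -12.04 points. Over CpGs in stretches of 50 bases at 1 place, the bodies of KIR2DL3, KIR2DL1 and KIR3DL1 gave -0.0135, -1.92 and -3.75 points and the promoters of KIR2DL1 and NLRP4 -0.427 and 0.675 points. With libraries left out, the bodies ranged from -1.89 to 0.959 (LILRB3), -2.67 to 1.07 (LILRA6), -0.280 to 2.41 (LILRB1), -0.720 to 0.00410 (KIR3DL3), -1.19 to 1.40 (KIR2DL1), -1.85 to 5.69 (NLRP9), -0.0453 to 1.26 (NLRP11), -4.77 to 0.681 (NLRP4) and -0.636 to 1.52 points (NLRP5). The promoters ranged from -6.72 to 1.84 (LILRA5), -1.68 to 1.32 (LILRA2), -2.37 to 0.485 (LILRB1), -3.15 to 3.38 (KIR3DL3), -1.12 to 17.0 (KIR2DL3), -2.35 to 10.8 (KIR2DL1), -2.55 to 11.3 (KIR3DL2), -1.28 to 2.84 (GP6), -18.2 to 13.2 (NLRP2), -3.84 to 0.183 (NLRP4) and -2.13 to 3.52 points (NLRP8). The causes were not tested. With 2 libraries per group and a median of 8 to 10 reads per CpG, precision is limited, and no detection limit was computed.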

Other observations

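KIR and LILR pseudogenes and noncoding genes of the receptor cluster, which entered no test, were at most 17.0% in any library. KIR3DX1, a KIR relative listed without a protein in the annotation, was at 12.8% and 12.6% in WT and 13.7% and 9.87% in ZNF274KO. KIR2DP1 was at 13.6% and 12.3% in WT and 17.0% and 13.35% in ZNF274KO, and KIR3DP1 at 13.8% and 9.36% against 16.9% and 15.2%. The LILR pseudogenes LILRP1 and LILRP2 were at 12.0% and 14.3% against 15.4% and 14.8%, and at 5.78% and 3.28% against 4.05% and 2.67%. The antisense gene LILRB1-AS1 was at 10.3% and 6.66% in WT and 13.1% and 12.4% in ZNF274KO. The vomeronasal receptor pseudogenes VN1R104P and VN1R105P, with 15 and 12 CpGs, were at 14.0% and 23.4% against 39.8% and 19.49%, and at 10.4% and 20.4% against 18.9% and 10.98%, with groups that overlapped.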
